A study of Homo sapiens with 6 samples.

Results

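The genes described are 10 genes that prepare and start DNA replication at its origins: ORC1, ORC6, CDC6, CDT1, GMNN, CDC45, GINS1, GINS2, GINS3 and GINS4. They were chosen by role, as the rows of the deposited table with these gene symbols, and all 10 were found among its 25662 rows. The table holds RNA sequencing values of HCT116, a human cell line established from a colorectal carcinoma, from 3 cultures transfected with an siRNA against RRN3 and 3 transfected with a control siRNA. All cultures were grown in the same medium with serum, and the replicates are described as biological. Neither the siRNA sequences nor the time after transfection is stated in the labels, so effects of the siRNA on other transcripts cannot be told apart from those of losing RRN3. RRN3, also called TIF-IA, brings RNA polymerase I to the ribosomal RNA genes, and the comparison asks which transcripts differ once it is depleted.

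In G1 phase the origin recognition complex (ORC) binds origins and, with CDC6 and CDT1, loads the MCM helicase in an inactive form, a step called licensing. Geminin, the product of GMNN, binds CDT1 and blocks further loading once S phase has begun. CDC45 and the GINS complex, made of the products of GINS1 to GINS4, then join the MCM ring to form the active helicase. Many of these genes are known targets of E2F transcription factors, and their transcripts are known to be scarce in cells that have left the cell cycle.

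Promoter sequences of these genes were searched for a short E2F core. RefSeq promoter windows on GRCh38.p14, each reaching from 250 bases before to 50 after a transcript start, were matched by symbol for 9 of the 10 genes (all but GINS4), with 12 windows in all. The core was TTNNCGC with only C or G at the open positions, on either strand, and 7 of the 9 genes held it, which is 77.8%, against 15.3% of the 27305 genes in the promoter table. By window, 7 of 12 held it, against 13% of 35116 windows. Each sequence below runs 5′ to 3′ in the direction of its gene, the capitals mark the core or its reverse complement (GCGNNAA), and each shows the core with 20 bases on either side.
CDT1 (chr16:88803734-88803792, plus strand): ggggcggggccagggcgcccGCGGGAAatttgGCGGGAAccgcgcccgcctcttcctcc
ORC1 (chr1:52404416-52404465, minus strand): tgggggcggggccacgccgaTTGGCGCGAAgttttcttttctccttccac
CDC6 (chr17:40287867-40287913, plus strand): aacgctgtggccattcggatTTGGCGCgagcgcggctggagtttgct
GMNN (chr6:24775314-24775360, plus strand): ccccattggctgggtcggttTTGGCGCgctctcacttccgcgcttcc
GINS1 (chr20:25407658-25407704, plus strand): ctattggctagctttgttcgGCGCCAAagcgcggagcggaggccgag
GINS2 (chr16:85688959-85689005, minus strand): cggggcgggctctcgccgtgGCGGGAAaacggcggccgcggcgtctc
GINS3 (chr16:58392446-58392492, plus strand): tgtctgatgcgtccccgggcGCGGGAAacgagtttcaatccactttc

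CDT1 held 2 cores, beginning 35 and 23 bases before its start. ORC1 held 2 on opposite strands that overlap each other, and the first also overlaps a CCAAT box on the opposite strand. The windows of ORC6 and CDC45 did not hold these letters, and 1 of the 2 GMNN windows did. Only these letters were searched, so E2F sites of other forms would be missed in any of the windows. Counted by their first base in the direction of the gene, all 9 cores began between 79 bases before and 8 bases after the start. The CCAAT box, a common promoter element, was searched as CCAAT on both strands. It was present in 7 of the 9 genes (77.8%), against 39.7% of all genes with a promoter window. The CHR element, which marks many genes of late cell cycle phases, was searched as TTTGAA or TTTAAA on both strands. It was found in 1 gene, CDC45 (11.1%), against 27.9% of all genes with a promoter window. These matches are descriptions of the windows. Promoters differ in GC content, which was 49.7% to 78.3% in the 12 windows and was not compared with that of the other promoters. The shares for all genes were not limited to genes expressed in these cells.

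**Figure D1:**
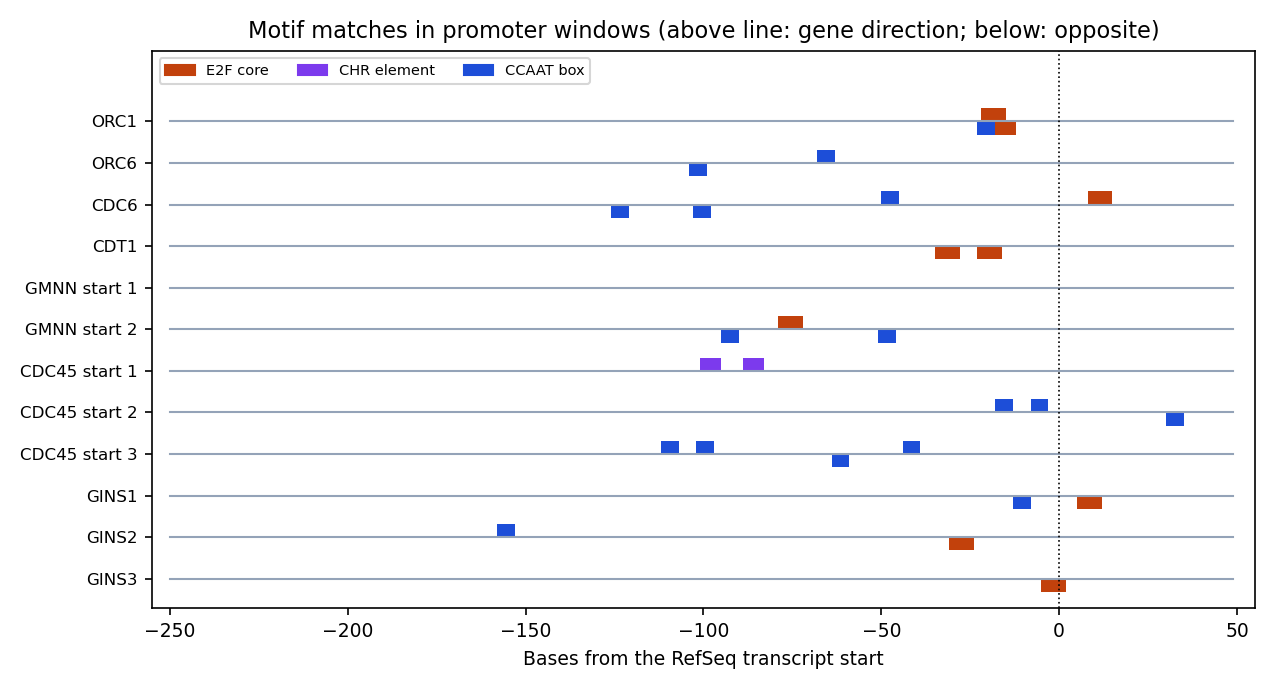
Positions of the E2F core, the CHR element and the CCAAT box (coloured boxes) in the 12 RefSeq promoter windows of 9 genes, in bases from the transcript start; boxes above a line lie in the direction of the gene and boxes below it in the opposite direction. The E2F cores of 7 genes lie close to the start, the first base of each between 79 bases before and 8 after it.

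The values are TPM, a transcript abundance scaled by transcript length and relative to all transcripts of a library, computed by the authors. The 6 libraries had between 17361 and 18632 genes above 0 and summed TPM of 991305 to 992042. Their sequencing depth is unknown, since TPM does not retain it. RRN3 itself held 2.70, 1.22 and 0.925 TPM after RRN3 siRNA, against 20.9, 14.7 and 14.1 TPM after control siRNA, a log2 change of -2.79 (SE 0.27, limma adjusted p = 3.01e-04). Of the 8 epithelial markers in the table, none was at 0 in all libraries, and their summed level was 12358 to 13511 TPM after RRN3 siRNA and 5435 to 6491 TPM after control siRNA. Most of that sum came from the keratin genes KRT8, KRT18 and KRT19, the 3 of the 6 markers tested that rose. The intestinal factor CDX2 averaged 12.8 ± 0.810 TPM after RRN3 siRNA and 16.1 ± 1.71 TPM after control siRNA, with no overlap between the groups (limma adjusted p = 0.101), and KRT20 and VIL1 were below 1 TPM in every library. Leukocyte and endothelial markers summed to below 1 TPM in every library, and the 4 fibroblast markers, 2 of them at 0 throughout, summed to 6.78 to 7.62 TPM after RRN3 siRNA and 8.34 to 10.4 TPM after control siRNA. Nearly all of that was COL1A1, which was lower in every RRN3 siRNA library than in every control siRNA library but did not pass the test (limma adjusted p = 0.102). The part of these markers in the results was not tested. Both libraries numbered 1 held more of the transcripts with low GC content than the others of their group. The correlation across genes of GC content with the deviation from the group mean was -0.50 for RRN3 siRNA replicate 1 and -0.45 for control siRNA replicate 1.

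All 10 genes fell in cells given RRN3 siRNA, and for each of them every RRN3 siRNA library lay below every control siRNA library. Together they summed to 104 ± 18.2 TPM after RRN3 siRNA and 344 ± 24.2 TPM after control siRNA (SD, n = 3 each), or 30.1% of control. A gene is said to fall if its limma p, adjusted by the Benjamini-Hochberg method over all 12157 genes tested, was under 0.05. By that rule 19.0% of the genes tested fell and 11.2% rose, and in 26.9% every RRN3 siRNA library was below every control siRNA library. With median-of-ratios scaling 17.4% fell and 16.6% rose, and without RRN3 siRNA replicate 2 the shares were 11.9% and 6.46%. All fold changes were fitted as log2(TPM + 1), which understates the change of low genes. The median log2 change was -1.56 over the 10 genes and -0.05 over all genes tested. For each of the 10, the exact two-sided permutation test gave p = 0.1, the smallest that 3 against 3 libraries allow. RNA of whole cultures was measured, so fewer cells that express these genes and less RNA per cell cannot be told apart.

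**Figure D2:**
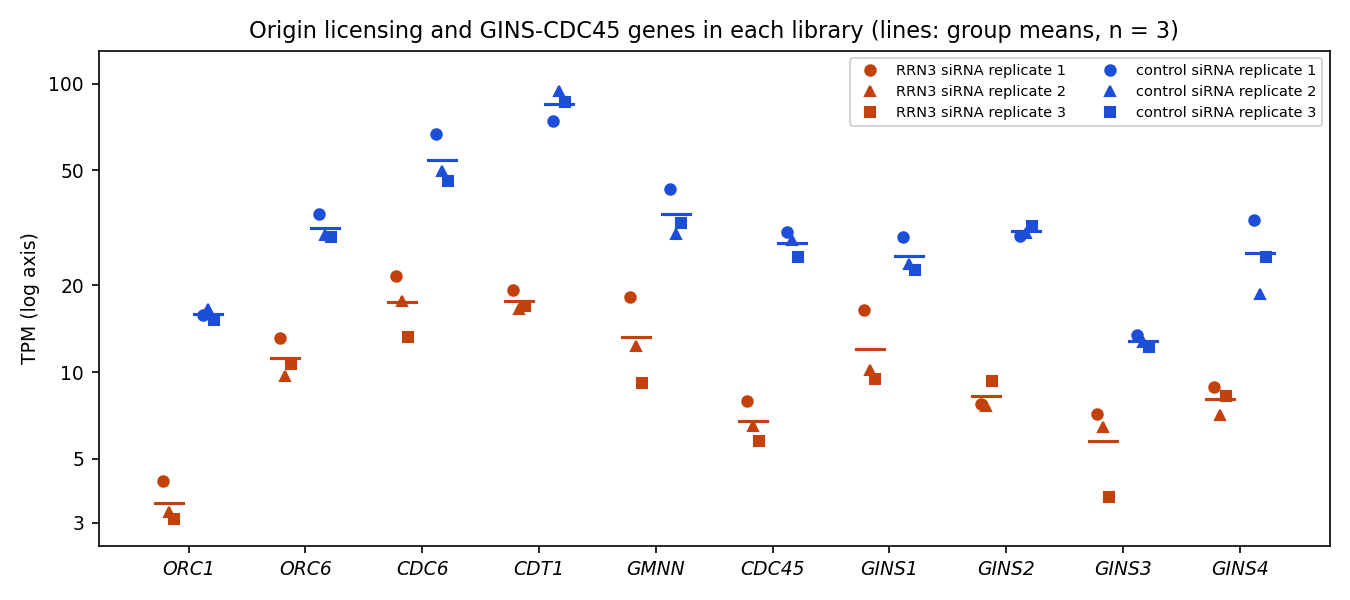
TPM (log axis) of the 10 genes in each of the 6 libraries, with RRN3 siRNA in orange, control siRNA in blue, a symbol for each replicate number and a line at each group mean (n = 3). No gene has overlapping groups, and CDT1 shows the largest gap, at 16.5 to 19.2 TPM after RRN3 siRNA against 74.0 to 94.2 TPM after control siRNA.

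ORC1 and ORC6 encode subunits of the origin recognition complex. ORC1, an ATPase that is known to be degraded in S phase, lies on chromosome 1 at 52372829 to 52404459 (GRCh38, minus strand). ORC1 held 4.20, 3.27 and 3.09 TPM after RRN3 siRNA, against 15.8, 16.5 and 15.2 TPM after control siRNA. The control siRNA libraries lay close together, and the highest RRN3 siRNA library was still far below the lowest of them. Its log2 change was -1.90 (SE 0.14, limma adjusted p = 9.42e-05). ORC6, the smallest subunit, lies on chromosome 16 at 46689643 to 46698394 (plus strand). ORC6 held 13.1, 9.68 and 10.7 TPM after RRN3 siRNA, against 35.4, 29.8 and 29.4 TPM after control siRNA. In both groups replicate 1 was the highest for ORC6. Its log2 change was -1.43 (SE 0.14, limma adjusted p = 3.11e-04), a mean level of 35.4% of control, compared with 22.2% for ORC1.

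The ratio of ORC1 to ORC6 TPM within a library was 0.321, 0.338 and 0.289 after RRN3 siRNA, against 0.448, 0.552 and 0.517 after control siRNA. The groups did not overlap, and the difference in log2 ratio was -0.48 (exact two-sided permutation p = 0.1, adjusted p = 0.3 over 9 ratios). The other ORC genes tested, ORC2, ORC3, ORC4 and ORC5, did not pass the test in either direction. ORC2 held 14.6, 8.24 and 5.90 TPM after RRN3 siRNA and 11.0, 8.54 and 8.16 TPM after control siRNA. These groups overlapped, with a log2 change of -0.03 and a 95% interval of -0.69 to 0.63. ORC3, ORC4 and ORC5, named after their values were seen, had log2 changes of -0.49, 0.36 and -0.29, with limma adjusted p of 0.123, 0.174 and 0.231. ORC4 passed upward with median-of-ratios scaling (adjusted p = 0.0467), quantile normalization (0.0488), the GC trend of each library removed (0.0425) and without RRN3 siRNA replicate 3 (0.0286), while ORC3 passed downward without control siRNA replicate 2 (0.0240). The sum of ORC2 to ORC5 was 36.0 ± 8.39 TPM after RRN3 siRNA and 35.4 ± 4.24 TPM after control siRNA. Set against that sum, ORC1 stood at 0.0943, 0.0914 and 0.111 after RRN3 siRNA and at 0.405, 0.536 and 0.417 after control siRNA. ORC6 stood at 0.294, 0.271 and 0.385 after RRN3 siRNA and at 0.905, 0.970 and 0.807 after control siRNA. Neither ratio overlapped between the groups, but both were chosen after the values were seen and were not tested.

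CDC6 and CDT1 are the loading factors of licensing. CDC6, an ATPase that joins ORC at origins, lies on chromosome 17 at 40287633 to 40304657 (plus strand). CDC6 held 21.5, 17.6 and 13.2 TPM after RRN3 siRNA, against 66.9, 49.8 and 45.8 TPM after control siRNA. Both groups spread widely, with replicate 1 highest in each, and the log2 change was -1.59 (SE 0.20, limma adjusted p = 9.06e-04). CDT1, which brings the MCM ring to ORC and CDC6, lies on chromosome 16 at 88803213 to 88809258 (plus strand). CDT1 held 19.2, 16.5 and 17.0 TPM after RRN3 siRNA, against 74.0, 94.2 and 86.1 TPM after control siRNA. Here replicate 1 was the highest after RRN3 siRNA but the lowest after control siRNA. The log2 change of CDT1 was -2.21 (SE 0.12, limma adjusted p = 2.49e-05), the largest of the 10 and the 12th largest fall of the 12157 genes tested. Its level after RRN3 siRNA was 20.7% of control, a 4.83-fold fall.

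In control siRNA libraries CDT1 was higher than CDC6 in every library, while after RRN3 siRNA the means were 17.5 TPM for CDT1 and 17.4 TPM for CDC6. The ratio of CDC6 to CDT1 TPM was 1.12, 1.07 and 0.776 after RRN3 siRNA, against 0.904, 0.528 and 0.532 after control siRNA. The groups overlapped, and the difference in log2 ratio of 0.62 gave an exact two-sided permutation p = 0.2 (adjusted p = 0.3).

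GMNN encodes geminin, the inhibitor of CDT1, and lies on chromosome 6 at 24774931 to 24786099 (plus strand). GMNN held 18.2, 12.3 and 9.13 TPM after RRN3 siRNA, against 43.0, 30.1 and 32.9 TPM after control siRNA. The RNA of the inhibitor thus fell as that of its target did, to 37.4% of control, with replicate 1 the highest in both groups. Its log2 change was -1.39 (SE 0.24, 95% interval -1.94 to -0.84, limma adjusted p = 0.00368). The ratio of CDT1 to GMNN TPM was 1.06, 1.33 and 1.86 after RRN3 siRNA, against 1.72, 3.13 and 2.62 after control siRNA. RRN3 siRNA replicate 3 lay above control siRNA replicate 1, so the groups overlapped. The difference in log2 ratio of -0.82 gave an exact two-sided permutation p = 0.2 (adjusted p = 0.3). With 3 against 3 libraries that test cannot give a p below 0.1, so it could not decide whether CDT1 fell more than GMNN.

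CDC45 encodes the helicase cofactor that is loaded with GINS when an origin fires, and lies on chromosome 22 at 19479459 to 19520612 (plus strand). CDC45 held 7.95, 6.52 and 5.76 TPM after RRN3 siRNA, against 30.5, 28.6 and 25.0 TPM after control siRNA. In each group the values lay close together, far from those of the other group. Its log2 change was -1.91 (SE 0.14, limma adjusted p = 9.62e-05), a fall to 24.0% of control.

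The products of GINS1 to GINS4, also called PSF1, PSF2, PSF3 and SLD5, form a complex with 1 copy of each subunit. Summed over the 4 genes, the level was 40.1, 31.4 and 30.8 TPM after RRN3 siRNA, against 106, 85.3 and 91.9 TPM after control siRNA. The summed level was 36.1% of control, and the single genes ranged from 26.8% for GINS2 to 47.7% for GINS1. GINS2 (chromosome 16, 85676198 to 85690073, minus strand) held 7.73, 7.64 and 9.32 TPM after RRN3 siRNA, against 29.7, 30.4 and 32.1 TPM after control siRNA. Its groups were the farthest apart of the GINS genes, and its log2 change was -1.78 (SE 0.12, limma adjusted p = 5.42e-05). GINS4 (chromosome 8, 41529206 to 41545046, plus strand) held 8.86, 7.11 and 8.29 TPM after RRN3 siRNA, against 33.7, 18.6 and 25.0 TPM after control siRNA. Its control siRNA libraries were the most spread of the GINS genes, and its log2 change was -1.53 (SE 0.21, limma adjusted p = 0.00127).

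GINS1 and GINS3 had the smallest changes of the 10 genes. GINS1 (chromosome 20, 25407727 to 25452628, plus strand) held 16.4, 10.2 and 9.45 TPM after RRN3 siRNA, against 29.3, 23.6 and 22.6 TPM after control siRNA. GINS3 (chromosome 16, 58295080 to 58406144, plus strand) held 7.14, 6.43 and 3.68 TPM after RRN3 siRNA, against 13.4, 12.7 and 12.2 TPM after control siRNA. For both, the RRN3 siRNA libraries were more spread on the log scale than the control siRNA libraries. The log2 change was -1.04 (SE 0.21, limma adjusted p = 0.00727) for GINS1 and -1.07 (SE 0.21, limma adjusted p = 0.00746) for GINS3.

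Among the 6 ratios between GINS genes, 1 did not overlap between the groups. The ratio of GINS1 to GINS2 TPM was 2.12, 1.33 and 1.01 after RRN3 siRNA, against 0.987, 0.775 and 0.705 after control siRNA. The difference in log2 ratio was 0.75, with an exact two-sided permutation p = 0.1 and adjusted p = 0.3. The ratio of GINS2 to GINS3 was 1.08, 1.19 and 2.53 after RRN3 siRNA, against 2.22, 2.38 and 2.64 after control siRNA, and 1 RRN3 siRNA library lay among the control siRNA libraries. The other 4 GINS ratios differed by -0.26 to 0.49 in log2 ratio, with exact permutation p of 0.2 to 0.8. None of the 9 ratios tested passed, and with 3 against 3 libraries none could.

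**Figure D3:**
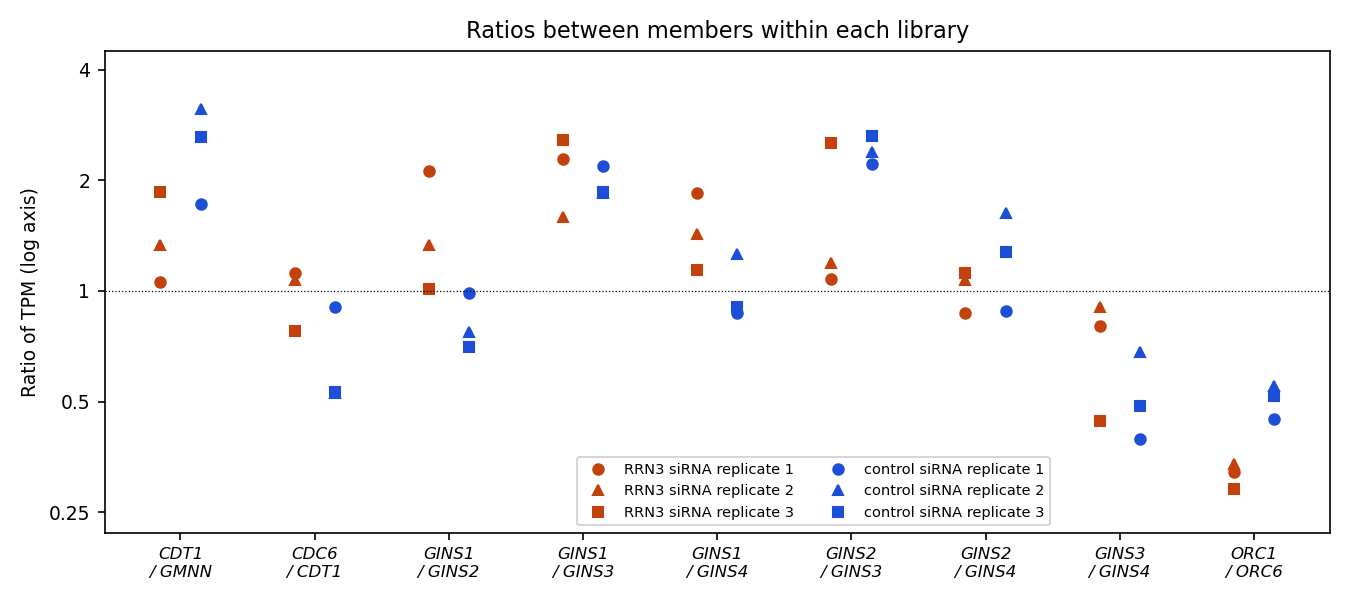
Ratio of TPM (log axis) between 9 pairs of the genes within each library, with RRN3 siRNA in orange, control siRNA in blue and a symbol for each replicate number. The groups are apart for GINS1 over GINS2 and for ORC1 over ORC6 and overlap for the other 7 pairs.

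In order of level after RRN3 siRNA, the genes ran from CDT1 at 17.5 TPM, CDC6 at 17.4 TPM and GMNN at 13.2 TPM through GINS1, ORC6, GINS2, GINS4 and CDC45 to GINS3 at 5.75 TPM and ORC1 at 3.52 TPM. Of the neighbours in that order, only ORC6 and GINS2 had ranges that did not overlap. After control siRNA the order was CDT1 at 84.8 TPM, CDC6 at 54.2 TPM and GMNN at 35.3 TPM, then ORC6, GINS2, CDC45, GINS4 and GINS1, and last ORC1 at 15.8 TPM and GINS3 at 12.8 TPM. There CDT1 was apart from CDC6, CDC6 from GMNN, GINS1 from ORC1 and ORC1 from GINS3, while the ranges of the other neighbours overlapped. ORC1 was thus lower than GINS3 in every library after RRN3 siRNA, and higher than GINS3 in every library after control siRNA.

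The falls of the 10 genes stood in the lower tail of all genes tested, with 0.0905% of genes falling more than CDT1 and 4.13% falling more than GINS1. Within groups, replicate 1 was the highest of the RRN3 siRNA libraries for 9 of the 10 genes and of the control siRNA libraries for 7. Over all genes tested these shares were 70.5% and 53.3%. Without both libraries numbered 1, all 10 genes still fell, with a median log2 change of -1.53. The median transcript GC content was 41.3% for GMNN and 65.3% for CDT1, the lowest and highest of the 10. With the GC trend of each library removed, all 10 fell, with the same median log2 change of -1.53.

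**Figure D4:**
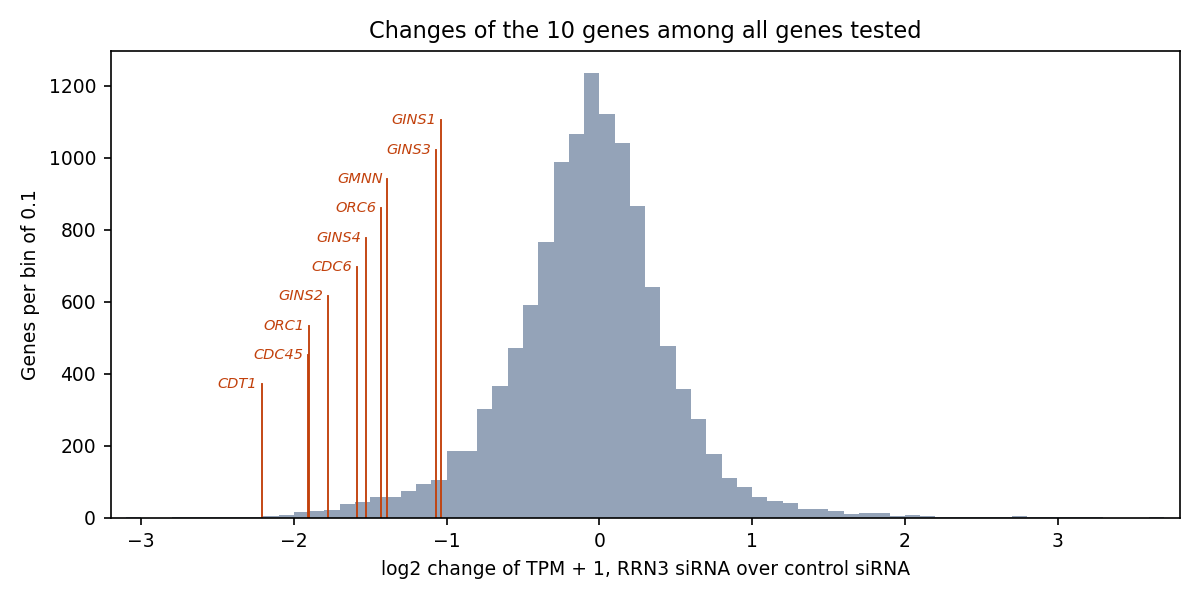
Number of genes per bin of 0.1 in log2 change (RRN3 siRNA over control siRNA) for the 12157 genes tested, with orange lines at the 10 genes, whose heights only separate the labels. The 10 genes lie between -2.21 for CDT1 and -1.04 for GINS1, left of the bulk of genes around the median of -0.05.

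Other genes of the same steps were grouped by role, and none of these lists held a gene with a higher level at an unadjusted limma p under 0.05. Beside the list counts below, 19.0% of all genes tested fell and 11.2% rose, with a median log2 change of -0.05. Of 13 other recognition and loading genes tested, 9 fell, 0 rose and 4 did not pass, with a median log2 change of -0.83. The MCM subunit genes, which encode the ring that ORC, CDC6 and CDT1 load, held the largest changes in this group. MCM5 averaged 21.3 ± 1.37 TPM after RRN3 siRNA and 112 ± 10.3 TPM after control siRNA, with a log2 change of -2.34, close to that of CDT1. MCM7, MCM2 and MCM3 had log2 changes of -1.61, -1.79 and -1.94, with limma adjusted p of at most 4.5e-05. The sum of GINS1 to GINS4 over the sum of MCM2 to MCM7 was 0.162, 0.141 and 0.152 after RRN3 siRNA, against 0.130, 0.102 and 0.128 after control siRNA, a ratio chosen after the values were seen and not tested.

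Of 15 origin firing genes, 12 passed the filter of a mean of 1 TPM, and of these 11 fell, 0 rose and 1 did not pass, with a median log2 change of -1.16. RECQL4, a helicase needed for replication to start, averaged 22.1 ± 1.24 TPM after RRN3 siRNA and 70.2 ± 4.73 TPM after control siRNA (log2 change -1.62, limma adjusted p = 3.09e-05). DBF4B, an activator of the CDC7 kinase, averaged 3.45 ± 0.859 TPM after RRN3 siRNA and 12.7 ± 1.31 TPM after control siRNA. POLE, the catalytic subunit of DNA polymerase epsilon, averaged 12.7 ± 1.27 TPM after RRN3 siRNA and 39.4 ± 7.58 TPM after control siRNA. TICRR, also called treslin, which is needed to load CDC45 at origins, averaged 2.61 ± 0.801 TPM after RRN3 siRNA and 9.23 ± 1.49 TPM after control siRNA. The gene that did not pass was POLE3, an accessory subunit of the same polymerase, at 61.8 ± 4.14 TPM after RRN3 siRNA and 75.4 ± 6.31 TPM after control siRNA (limma adjusted p = 0.0584), although it passed without RRN3 siRNA replicate 1 (0.0437) or control siRNA replicate 3 (0.0408). All 3 fork protection genes fell, with log2 changes of -1.55 for TIMELESS, -1.05 for its partner TIPIN and -1.16 for CLSPN, the checkpoint adaptor claspin. CLSPN was low, at 0.670 ± 0.359 TPM after RRN3 siRNA and 2.74 ± 0.847 TPM after control siRNA. Its mean was 24.4% of control, against 32.1% for TIMELESS and 44.0% for TIPIN, so its log2 change of TPM + 1 is understated.

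Among the factors that degrade CDT1, CDC6, ORC1 and geminin, 4 of 13 tested fell, 0 rose and 9 did not pass, with a median log2 change of -0.18. Over all genes tested 19.0% fell, and the median log2 change was -0.05. The 4 that fell were DTL, SKP2, CCNF and PCNA. DTL, SKP2 and CCNF encode parts of ubiquitin ligases that choose the substrate, and CDT1 is marked for degradation on PCNA. FBXO31 and FZR1, which also encode substrate-choosing parts, did not pass, with log2 changes of 0.18 and -0.31 (limma adjusted p of 0.211 and 0.225). DTL averaged 3.89 ± 1.25 TPM after RRN3 siRNA and 14.5 ± 3.4 TPM after control siRNA. CCNF averaged 15.4 ± 1.0 TPM after RRN3 siRNA and 52.2 ± 5.54 TPM after control siRNA. PCNA averaged 138 ± 26.5 TPM after RRN3 siRNA and 275 ± 36.3 TPM after control siRNA, and SKP2 had a log2 change of -1.12. DDB1, the adaptor of the ligase that DTL guides, was at 197 ± 2.58 TPM after RRN3 siRNA and 205 ± 15.5 TPM after control siRNA, with a log2 change of -0.05 and a 95% interval of -0.23 to 0.12. Of the 4 relatives of geminin and of the MCM proteins, 3 were tested and 0 passed by limma, although 1, MCM8, had an unadjusted p under 0.05 (adjusted p = 0.0546, and 0.00401 without RRN3 siRNA replicate 1). MCIDAS, a relative of geminin, was at 1.40 ± 0.364 TPM after RRN3 siRNA and 1.52 ± 0.503 TPM after control siRNA.

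**Figure D5:**
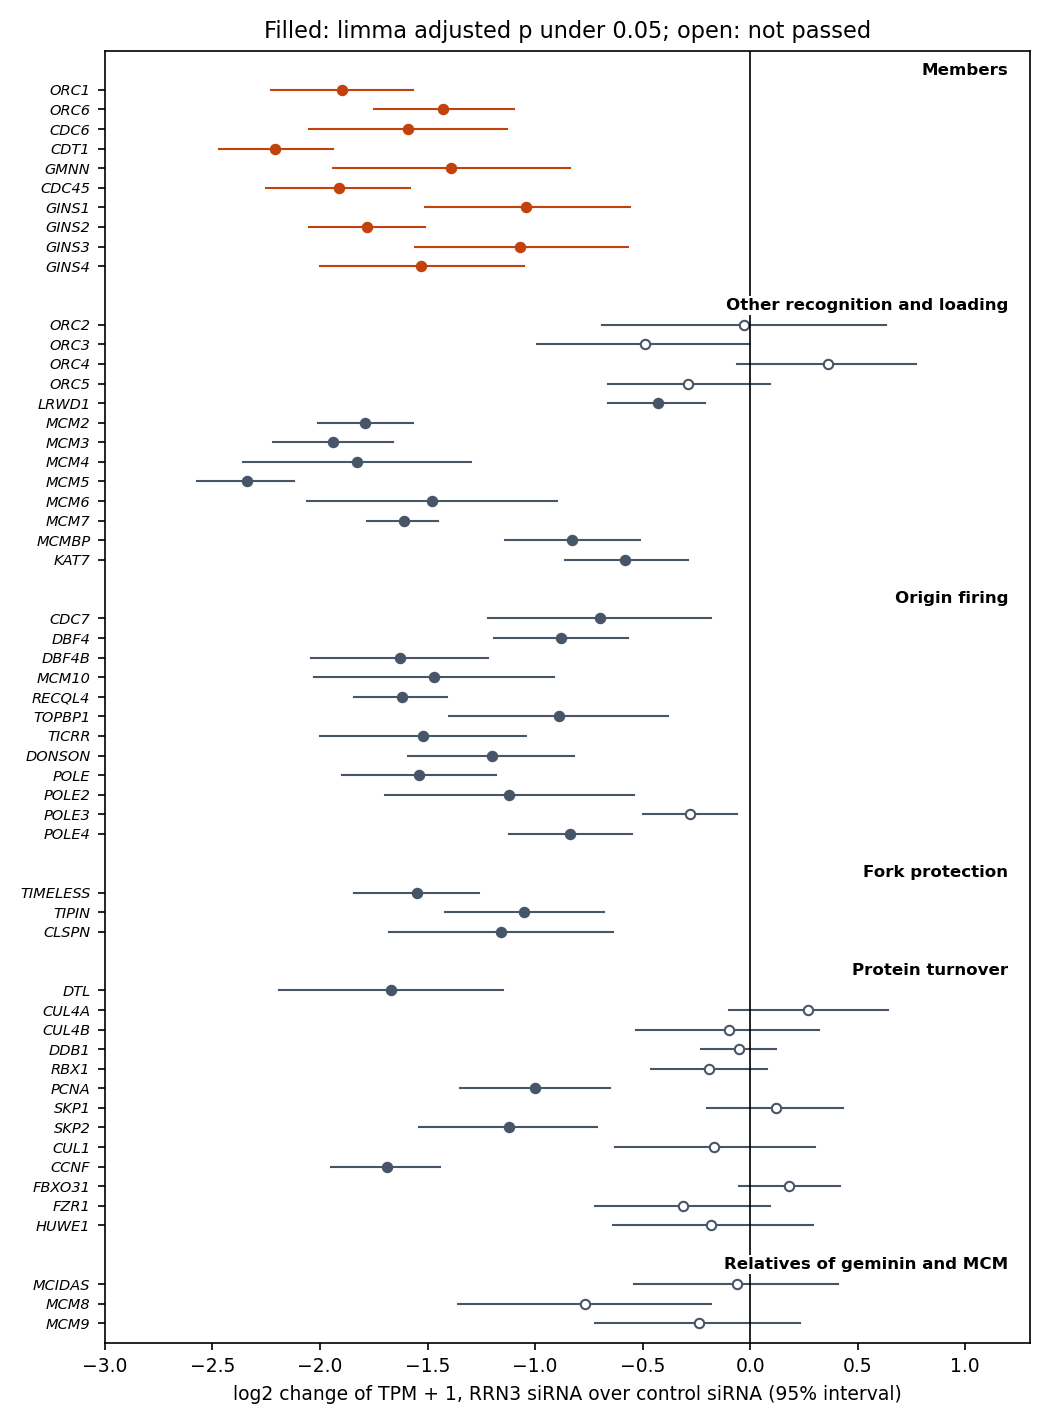
Log2 change of TPM + 1 (RRN3 siRNA over control siRNA) with its 95% interval for the 10 genes (orange) and for the genes tested in 5 groups of related roles (grey). Filled points passed a limma adjusted p of 0.05; the 10 genes are all filled, while ORC2 to ORC5 and 9 of 13 genes of protein turnover are open.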

How the data were processed

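The authors deposited 1 TPM value per gene symbol and library, per the file headers. STAR, Salmon and GRCh38 are named in the submitters' processing notes without their roles. The labels name poly(A) RNA as the molecule and a kit that removes ribosomal RNA. The authors' annotation, filters and software versions: not given in the sources used here. Groups and replicate numbers came from the labels.

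The fit, with limma 3.58.1 (R 4.3.3) on log2(TPM + 1), had the group as its only term, an intensity trend in eBayes, and Benjamini-Hochberg adjustment over the 12157 genes with a mean of at least 1 TPM over the 6 libraries (threshold 0.05). The fit was first tested on simulated data. Ratios between genes were tested with exact two-sided permutation tests, adjusted over 9 pairs. The 10 genes, the lists of related genes and the motifs were chosen with earlier results of these data known. The genes named beside the 10 were up to 4 per list with the smallest adjusted p among those that passed, any that passed in the minority direction, and the gene with the smallest log2 change in size. Genes outside this rule were named after their values were seen. They are ORC3 to ORC5, MCM8, FBXO31, FZR1 and the genes given only in the closing section.

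Gene coordinates and transcript GC content came from GENCODE release 29 on GRCh38 (a GC value for 99.8% of genes tested), and promoter sequences from RefSeq on GRCh38.p14. Python 3.11.15, pandas 2.3.3 and matplotlib 3.10.9 were used. Alternatives were other pseudocounts, filters, scalings and variance models, a replicate block, removal of the GC trend by loess (span 0.3) and libraries left out. A further one was a limma test for a log2 change beyond 1 in size.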

Additional observations from a re-analysis of the deposited data

How the results depend on the processing

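Under each of 20 alternatives the 10 genes kept a negative log2 change, and under 19 of them all 10 fell and 0 rose (0 rose at an unadjusted p under 0.05 too). When limma tested for a log2 change beyond 1 in size, 4 of the 10 fell (CDT1, CDC45, ORC1 and GINS2). So did 4 of the other recognition and loading genes, 1 origin firing gene, 0 fork protection genes and 1 turnover gene. In the main fit all 10 had a log2 change of -1.04 or lower. For the rest of the 10, the test did not show a change beyond 1, which does not mean a smaller change. Over all genes tested 0.675% fell under that setting, against 19.0% in the main fit. A minimum mean of 5 TPM left 6 origin firing genes that fell, since fewer were tested. The median log2 change of the 10 genes was -1.69 to -1.39 when single libraries were left out, with -1.39 without control siRNA replicate 1. Of the recognition and loading genes 1, ORC4, rose with median-of-ratios scaling, with quantile normalization, with the GC trend removed, with that removal in a replicate block, and without RRN3 siRNA replicate 3. Of the turnover genes 1, CUL4A, rose with median-of-ratios scaling and with a replicate block, and 2, CUL4A and FBXO31, with the GC trend removed, with or without the block. Over all genes tested, 16.6% rose with median-of-ratios scaling, 18.1% with quantile normalization and 18.9% with a replicate block. The share was 22.7% with the GC trend removed, 25.7% with that removal in a replicate block and 10.4% without RRN3 siRNA replicate 3. Of the relatives 1, MCM8, fell with median-of-ratios scaling, quantile normalization, rescaling without mitochondrial and ribosomal protein genes, a replicate block, the GC trend removed with or without the block, without RRN3 siRNA replicate 1 and without both libraries numbered 1. Under the settings in which MCM8 fell, 17.4% to 26.7% of all genes tested fell. The cause was not tested.

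The log2 change of ORC2 turned positive with median-of-ratios scaling (0.04), quantile normalization (0.06), rescaling (0.00), the GC trend removed (0.01, also with the replicate block) and without any 1 of RRN3 siRNA replicates 2 and 3 and control siRNA replicate 1, in a range of -0.35 to 0.24 over the libraries left out. That of DDB1 turned to 0.02 with median-of-ratios scaling, and that of MCIDAS to 0.04 with quantile normalization and 0.07 with the GC trend removed, also with the block. With single libraries left out, DDB1 ranged from -0.10 to 0.00, MCIDAS from -0.22 to 0.08 and the difference between GINS1 and GINS3 from -0.08 to 0.21; none of these was called. POLE3 passed downward under 6 alternatives. CDC7, at a limma adjusted p of 0.049, lost its call under 9 alternatives.

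Same-numbered libraries had correlations of their deviations from the group means of 0.419, 0.095 and 0.159, and not every library correlated best with its own number, so the numbers were not taken as pairs. With a replicate block 10 of the 10 genes fell, and 3251 genes fell and 2295 rose among all tested, against 2312 and 1367 without it. Of the recognition and loading genes 10 fell with the block and 11 with the block and the GC trend removed, against 9 without either: ORC3 passed downward in both (limma adjusted p = 0.0421 and 0.0453) and ORC5 in the second (0.0457). The depth of the libraries is unknown and sets an unknown limit on low values such as those of ORC1. Window size did not move the count of genes with an E2F core (7 of 9), while the CCAAT box was in 6 genes with 150 bases before the start.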
